A study of Mus musculus with 29 samples.

Results

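The genes described here are the mouse immunoglobulin lambda light-chain genes, 3 variable genes (Iglv1, Iglv2 and Iglv3) and 3 constant genes (Iglc1, Iglc2 and Iglc3), taken from the table by gene name. The table lists 5 of these 6 among its 13982 genes, and Iglc3 was not analysed here because the table used does not hold it. Their reads were related to the 107 listed kappa variable genes (Igkv) of the same library. The data are 14 libraries of poly(A) RNA from (NZBxNZW)F1 mice, a lupus-prone cross, sequenced on an Ion Torrent PGM. No genetic change or treatment separates the groups, which differ in tissue, age and disease state. From proteinuric mice there were 4 kidney libraries (mice H6, H20, H115 and H117, aged 39, 36, 25 and 32 weeks), 3 libraries of tertiary lymphoid structures, or TLS (mice H6, H20 and H115), and 3 lymph node libraries (mice H6, H20 and H117). TLS are immune cell aggregates that were cut by hand from the kidney under a loupe, and the kidney libraries hold tissue of the same kidneys. The remaining 4 libraries were lymph nodes, 3 from mice positive for antibodies to double-stranded DNA (replicates 1, 2 and 3, aged 28, 29 and 18 weeks) and 1 labelled young (4 weeks). A miRNeasy kit was used for RNA of the antibody-positive mice, and TRIzol for all other RNA.

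Most B cells and plasma cells make antibody with 1 kind of light chain, kappa or lambda. In the mouse, kappa is the common kind and lambda the rare one, and the lambda locus is small, with few variable genes beside the many of the kappa locus. A variable gene encodes the antigen-binding part and is joined by DNA recombination to a joining segment, after which splicing adds a constant gene that encodes the rest of the chain. In the usual mouse arrangement, Iglv1 lies in the cluster with Iglc1 and Iglc3, and Iglv2 and Iglv3 lie upstream of the cluster with Iglc2. Plasma cells transcribe these genes at very high levels, so that a few such cells can give many reads in bulk tissue.

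All 6 genes lie on the minus strand of chromosome 16 (GRCm38, GENCODE M21 annotation). Iglc1 spans 19061618 to 19062071, Iglc3 19065230 to 19065681, Iglv1 19085017 to 19085500, Iglc2 19198396 to 19200351, Iglv3 19241207 to 19241690 and Iglv2 19260401 to 19260859. Each variable gene has 2 exons, and the coding part of each constant gene lies in 1 exon. An antisense noncoding gene of the annotation spans Iglc1 to Iglv1, and the counting was not stated to use strand. Which reads can be told apart depends on how alike the genes are, so matching stretches of the coding parts are printed. Over 351 aligned coding bases, Iglv1 and Iglv2 differed at 11 (96.9% identity), of which 5 lie in the stretch printed. By contrast, Iglv1 and Iglv3 shared 60.8% of 344. The last 150 coding bases of Iglv1 (chr16:19085017-19085166) are set beside those of Iglv2 (chr16:19260401-19260550) and the matching stretch of Iglv3 (chr16:19241213-19241372), with capitals at bases that differ from Iglv1 or have no counterpart in it.
Iglv1: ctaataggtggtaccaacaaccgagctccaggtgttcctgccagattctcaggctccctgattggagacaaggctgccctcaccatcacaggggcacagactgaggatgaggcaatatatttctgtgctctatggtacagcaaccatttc
Iglv2: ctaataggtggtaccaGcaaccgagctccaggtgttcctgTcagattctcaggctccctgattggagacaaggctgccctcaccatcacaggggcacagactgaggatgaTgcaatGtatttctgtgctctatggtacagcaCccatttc
Iglv3: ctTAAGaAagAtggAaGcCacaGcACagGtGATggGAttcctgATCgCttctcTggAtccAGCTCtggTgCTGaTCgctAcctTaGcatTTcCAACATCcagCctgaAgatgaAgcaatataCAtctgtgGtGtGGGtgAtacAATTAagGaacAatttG

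The constant genes paired differently. Iglc2 and Iglc3 differed at 11 of 314 coding bases (96.5% identity), and Iglc1 shared 74.8% with Iglc2 and 75.7% with Iglc3. Stretches from the start of the constant exons are printed for Iglc2 (chr16:19198704-19198853), Iglc3 (chr16:19065533-19065681) and Iglc1 (chr16:19061923-19062071), with capitals where a base differs from Iglc2.
Iglc2: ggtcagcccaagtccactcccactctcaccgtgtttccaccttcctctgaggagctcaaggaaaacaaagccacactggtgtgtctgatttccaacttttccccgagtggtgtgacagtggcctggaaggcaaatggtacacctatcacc
Iglc3: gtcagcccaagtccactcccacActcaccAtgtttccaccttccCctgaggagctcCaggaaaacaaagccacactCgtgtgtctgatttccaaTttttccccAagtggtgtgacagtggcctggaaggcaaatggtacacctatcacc
Iglc1: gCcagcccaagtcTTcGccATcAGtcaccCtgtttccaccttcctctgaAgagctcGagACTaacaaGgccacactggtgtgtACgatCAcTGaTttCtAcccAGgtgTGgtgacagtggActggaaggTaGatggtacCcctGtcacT

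Of all windows of 50 coding bases, 25.2% of those of Iglv1 occurred unchanged in Iglv2, and 14.3% of those of Iglc2 occurred in Iglc3. For Iglv3 and Iglc1 no such window occurred in the same orientation in another annotated transcript. The opposite orientation was not searched, so overlap with the antisense gene could not be found. At 100 bases the shares fell to 1.98% for Iglv1 and 0% for Iglc2. Values of Iglv1 and Iglv2 are therefore uncertain where short reads could not be placed, and reads listed under Iglc2 may include reads of Iglc3. The reference is of another strain than these mice, whose own alleles were not examined.

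Libraries held 343825 to 443379 reads. Ribosomal RNA genes took 55.6% of reads in the kidney of mouse H117, 31.8% in the lymph node of mouse H6 and 21.3% in the TLS of mouse H115, against at most 5.33% in the other libraries. The listed value of a gene was taken as its number of reads plus 1, divided by a size factor of the library, and 3 reads were worth 2.36 to 5.32. Tissue labels were checked against markers. The summed normalized reads of 9 B cell markers were 0 to 23.6 in kidney, 340 to 512 in TLS and 635 to 976 in proteinuric lymph node. The pan-B cell gene Ms4a1 had no read in any kidney library. Of 8 kidney tubule markers, the summed normalized reads were 7649 to 21640 in kidney, 2538 to 8612 in TLS and 2.43 to 12.3 in proteinuric lymph node, so that tubule transcripts were present in the dissected TLS. In bulk tissue, fewer cells of a type and less RNA per cell cannot be told apart.

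Lambda transcripts were abundant in lymph node and TLS and scarce in the kidney tissue. Iglv1, the variable gene with the most reads, had 27, 43, 2 and 13 reads in the kidneys of mice H6, H20, H115 and H117. Its TLS counts were 525, 210 and 240 in mice H6, H20 and H115, and its lymph node counts 991, 455 and 378 in mice H6, H20 and H117. The lymph node of mouse H6 was highest and every kidney was below every TLS and lymph node. Iglv2 had 17 reads in the kidney of mouse H20 and none in the other 3 kidneys, 37, 36 and 17 reads in the TLS of mice H6, H20 and H115, and 38, 77 and 57 in the lymph nodes of mice H6, H20 and H117. Iglv3 had 1 read in the kidney of mouse H6 and none in the other kidneys. In TLS it had 39, 25 and 28 reads in mice H6, H20 and H115, and in lymph node 78, 37 and 123 reads in mice H6, H20 and H117. The kidney of mouse H20 was thus the only kidney with reads of Iglv2, and no kidney held more than 1 read of Iglv3.

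Iglc2, the constant gene with nearly all lambda constant reads, had 3, 29, 4 and 4 reads in the kidneys of mice H6, H20, H115 and H117. It had 399, 225 and 197 reads in the TLS of mice H6, H20 and H115, and 451, 512 and 427 in the lymph nodes of mice H6, H20 and H117. Kidney did not overlap with either lymphoid tissue, and the kidney of mouse H20 again stood highest among kidneys. Per kilobase of exon, the order of normalized reads in proteinuric lymph node was Iglv1 (1853 ± 1584), Iglc2 (808 ± 252), Iglv3 (217 ± 109) and Iglv2 (159 ± 37.3; SD, n = 3). In TLS it was Iglv1 (743 ± 364), Iglc2 (398 ± 138), Iglv3 (72.8 ± 18.7) and Iglv2 (71.2 ± 18.3; SD, n = 3). Neighbours in this order, Iglv1 and Iglc2 as well as Iglv3 and Iglv2, differed by less than the larger of their SDs in both tissues, and the gap between Iglc2 and Iglv3 was larger than either SD. These SDs are between libraries. Within single libraries, Iglv1 lay above Iglc2 per kilobase in every TLS and proteinuric lymph node. This order depends on the exon lengths used, 391 bases for Iglv1 and 612 for Iglc2. In reads not divided by length, Iglc2 was above Iglv1 in the lymph nodes of mice H20 (512 and 455) and H117 (427 and 378). The same held in the TLS of mouse H20 (225 and 210). The order of Iglv3 and Iglv2 varied, with 297 and 150 in the lymph node of mouse H6 and 92.0 and 199 in that of mouse H20.

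**Figure D1:**
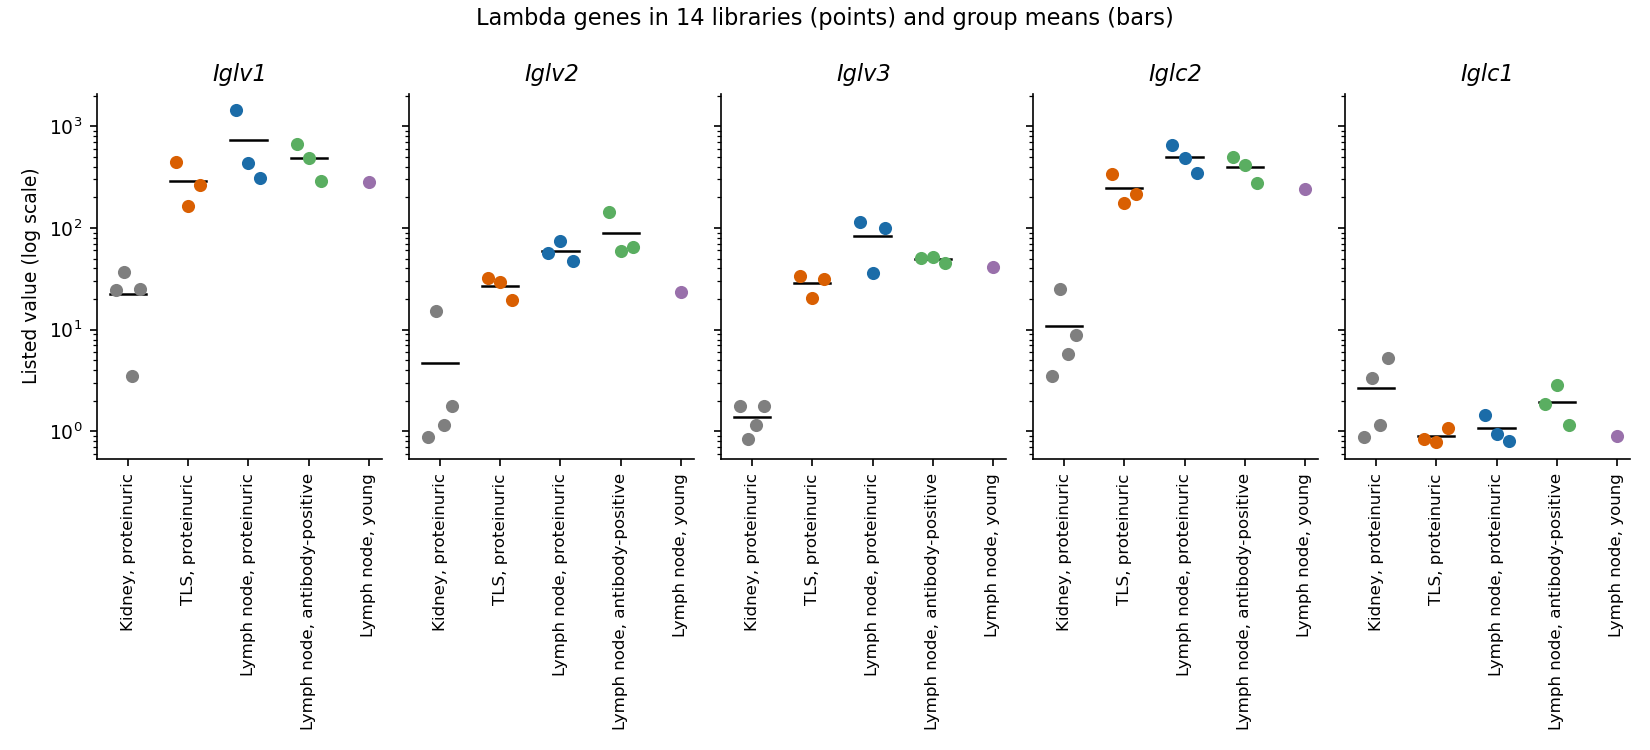
Listed values (log scale) of the 5 lambda genes in each library, by tissue and disease state, with points for libraries and bars for group means. The kidney libraries lie below all TLS and lymph node libraries for Iglv1, Iglv2, Iglv3 and Iglc2, and Iglc1 stays near the level of 0 reads in every group.

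The first comparison asked how TLS differ from the kidney tissue. All 4 lambda genes that passed the filter on low values (mean of at least 5) were lower in kidney than in TLS. The limma test across 7382 genes called 8.62% of all genes in this direction. The filter averaged all libraries of the fit. The kidney means of Iglv2 (4.75) and Iglv3 (1.39) were below it, so these genes passed only through the lymphoid tissues, which favours a lower kidney value. Iglc1 (mean listed value 2.69 in kidney and 0.908 in TLS) did not pass and was not tested. The mean listed value of Iglc2 was 10.9 ± 9.86 in the 4 kidneys and 244 ± 84.4 in the 3 TLS (SD). On the log2(value + 1) scale it differed by -4.64 ± 0.54 (SE, kidney over TLS, adjusted p = 0.000159). Iglv1 had means of 22.5 ± 14 and 292 ± 142, with a log2 fold change of -3.88 ± 0.74 and an adjusted p of 0.00452. Iglv3 changed by -3.62 ± 0.40 (adjusted p = 0.000129). Since its kidney libraries were all below 3 reads, a bound against the highest 3-read floor of a kidney is also given, by which TLS was at least 5.21-fold higher. Iglv2 changed by -2.90 ± 0.62 (adjusted p = 0.00858), and this call was lost in each of the 3 count tests on the recovered reads (adjusted p = 0.0575 to 0.0839). With 3 kidneys at 0 reads of Iglv2 and 3 at 0 reads of Iglv3, these fold changes depend on the pseudocount. Between pseudocounts of 0.1 and 5 they ran from -3.44 to -1.91 for Iglv2 and from -4.30 to -2.38 for Iglv3. On the listed values none of the 4 genes overlapped between kidney and TLS, which held with TLS higher for 13.4% of all genes tested. The sum over all Igkv genes moved in the same direction. Its mean of normalized reads was 682 in kidney and 21786 in TLS, and 70 of 94 tested Igkv genes fell in kidney and 0 rose. From 37 (mouse H6) to 81 (mouse H115) of the 107 Igkv genes had no read in a kidney library. The filter thus favoured a lower kidney value here too, so the count of 0 that rose says little.

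Between kidney and proteinuric lymph node, the same 4 genes were called, again lower in kidney. Here 20.8% of all genes were called lower in kidney, so that the calls stand against a broad background. Both comparisons use the same kidney libraries. The log2 fold changes were -5.67 ± 0.54 for Iglc2 (adjusted p = 4.59e-06), -5.01 ± 0.40 for Iglv3 (adjusted p = 1.35e-06), -4.97 ± 0.74 for Iglv1 (adjusted p = 0.000186) and -4.01 ± 0.62 for Iglv2 (adjusted p = 0.000253). Against the same kidney floor, the lymph node level of Iglv3 was higher by a factor of at least 15.5. None of the 4 genes overlapped, as held with lymph node higher for 23.3% of genes. With the 3 libraries rich in ribosomal RNA left out, both comparisons still called all 4 genes.

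Lymph node and TLS of proteinuric mice were compared to ask how far the ectopic structures resemble the lymphoid organ. None of the 4 genes passed the limma threshold, although all 4 had higher mean values in lymph node. Over all genes 10.6% were called in either direction. The largest difference was in Iglv3, with means of 83.6 ± 41.8 in lymph node and 28.7 ± 7.21 in TLS (SD, n = 3 each), a log2 fold change of 1.38 ± 0.42 (unadjusted p = 0.00653, adjusted p = 0.0579 by limma). This was 1 of the 4 genes at an unadjusted p under 0.05, a level that 22.6% of all genes reached. The edgeR and DESeq2 tests likewise called 0 of the 4 and had 1 under that level. Iglv3 passed without the lymph node of mouse H20 (log2 fold change 1.90, adjusted p = 0.00774), the library with its lowest lymph node value. The 95% intervals of the other log2 fold changes were -0.63 to 2.82 for Iglv1, -0.34 to 2.56 for Iglv2 and -0.22 to 2.27 for Iglc2, which leaves room for no change and for several-fold more lambda RNA in lymph node. On the listed values 3 of the 4 genes (Iglv2, Iglv3 and Iglc2) did not overlap, all with lymph node higher, against 9.48% of all genes tested. The lowest lymph node and the highest TLS value nearly met for Iglc2 (346 in mouse H117 and 339 in mouse H6) and Iglv3 (36.0 in mouse H20 and 33.9 in mouse H6). For Iglv2 they were 46.9 in mouse H117 and 32.2 in mouse H6. Iglv1 overlapped because the TLS of mouse H6 (446) lay above the lymph nodes of mice H20 (432) and H117 (307). Of the 94 tested Igkv genes, 4 rose in lymph node over TLS and 0 fell.

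**Figure D2:**
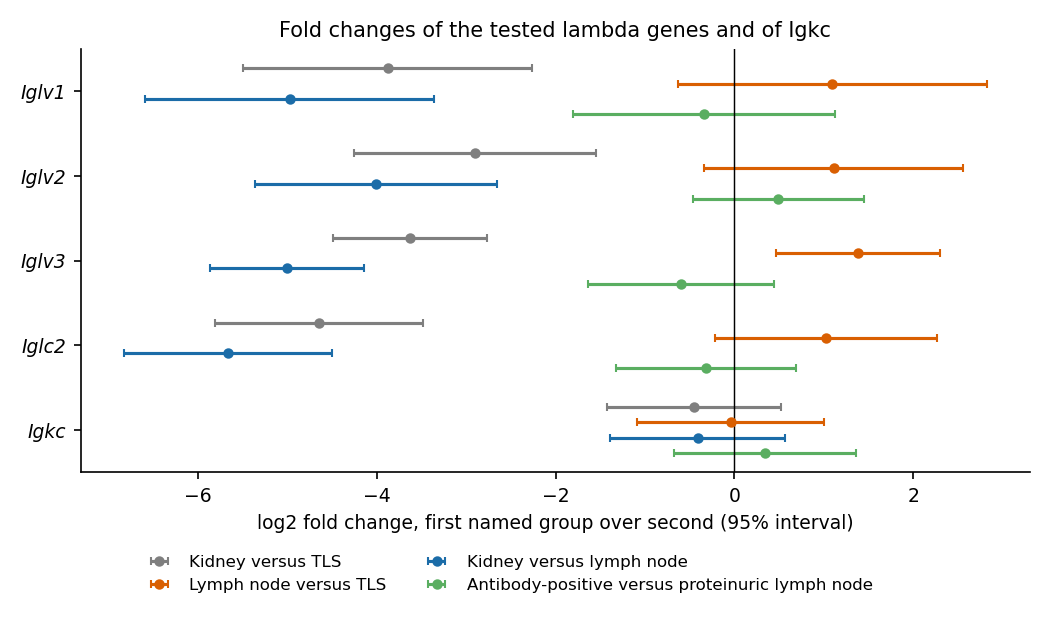
Log2 fold changes (first named group over the second) with 95% intervals from limma for the 4 tested lambda genes and Igkc in the 4 comparisons. The intervals of the lambda genes lie below 0 in both comparisons with kidney, with estimates from -2.90 (Iglv2, TLS) to -5.67 (Iglc2, lymph node), while those of Igkc include 0 in all 4.

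Disease state was compared within lymph node. Iglv1 had 724, 507 and 250 reads in antibody-positive replicates 1, 2 and 3, Iglv2 had 154, 62 and 55, Iglv3 had 53, 54 and 38, and Iglc2 had 539, 431 and 239. Replicate 3, the mouse aged 18 weeks, had the fewest reads of all 4 genes. On the listed values, however, its Iglv2 (64.2) lay above that of replicate 2 (59.9). Each gene's range overlapped with that of the proteinuric lymph nodes on the listed values. None of the 4 genes was called by limma and none had an unadjusted p under 0.05, which edgeR and DESeq2 repeated. Over all 6810 genes tested, limma called 0%, with 215 genes at an unadjusted p under 0.05, edgeR (TMM) called 0 and DESeq2 called 13. The log2 fold changes, antibody-positive over proteinuric, were -0.34 for Iglv1 (95% interval -1.81 to 1.13), 0.49 for Iglv2 (-0.46 to 1.44), -0.60 for Iglv3 (-1.64 to 0.44) and -0.32 for Iglc2 (-1.32 to 0.68). The RNA kit differed between these groups, so that kit and disease state cannot be told apart. In the young lymph node Iglv1, Iglv2, Iglv3 and Iglc2 had 313, 25, 45 and 266 reads. With 1 library there is no test, and its values of Iglv1 (281), Iglv2 (23.3) and Iglc2 (239) were below those of all 6 older lymph nodes, which held for 10.9% of all genes tested. Its Iglv3 value (41.2) lay above that of the lymph node of mouse H20 (36.0).

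The lambda share of light-chain variable reads was low in every library, between 0.973% and 4.57%. In kidney the share was 2.70% in mouse H6 (28 of 1036 reads, 95% Wilson interval 1.88% to 3.88%), 4.57% in mouse H20 (60 of 1312, 3.57% to 5.84%), 1.54% in mouse H115 (2 of 130, 0.423% to 5.44%) and 3.52% in mouse H117 (13 of 369, 2.07% to 5.93%). The TLS shares were 1.57%, 0.973% and 2.58% in mice H6, H20 and H115. The lymph node shares were 2.70%, 1.77% and 1.87% in mice H6, H20 and H117. Kidney thus had the widest intervals, set by its few reads, and overlapped with both lymphoid tissues. The intervals cover counting error only.

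The tissue means of the lambda share were 3.08% ± 1.28 in kidney (SD, n = 4), 1.71% ± 0.81 in TLS (n = 3) and 2.11% ± 0.51 in lymph node (n = 3). They differed by at most 1.38 percentage points, which did not pass (exact permutation test, two-sided, p = 0.241, adjusted p = 0.52 over 8 share tests). Both lambda and kappa variable reads were more numerous in the lymphoid tissues than in kidney. The ratio of mean normalized reads of TLS to kidney was 13.7 for the lambda V sum and 31.9 for the Igkv sum, and that of lymph node to kidney was 34.3 and 54.5. These ratios of means have no test of their own beside that of the share. Within single mice the order varied. In mouse H20 the kidney share was 3.60 percentage points above that of its TLS and in mouse H6 it was 1.13 above, whereas in mouse H115 it was 1.05 below. The lymph node share lay above that of TLS in both mice with both tissues, by 1.13 points in mouse H6 and 0.80 in mouse H20.

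**Figure D3:**
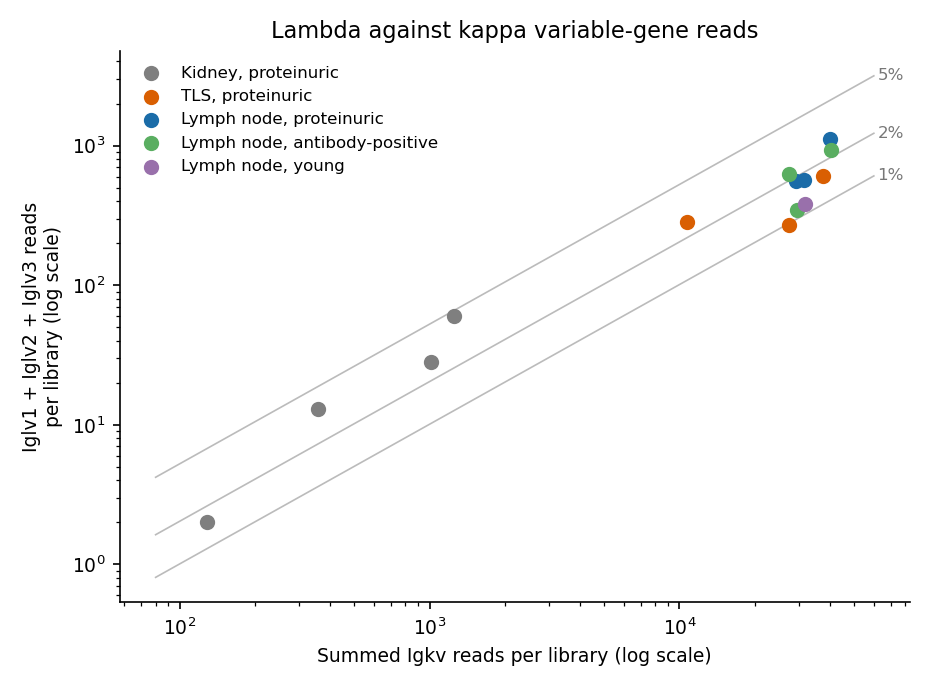
Reads of the 3 lambda variable genes against the summed Igkv reads of the same library, both on log scales, with grey lines at lambda shares of 1%, 2% and 5%. Kidney libraries lie at the lower left with 128 to 1252 Igkv reads, and all 14 libraries stay between the shares of 0.973% and 4.57%.

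Among antibody-positive lymph nodes the lambda share was 2.24%, 2.22% and 1.15% in replicates 1, 2 and 3. The difference of means from proteinuric lymph node was -0.24 percentage points (exact permutation test, two-sided, p = 0.6), and 3 against 3 libraries cannot give a p below 0.1. The young lymph node had a share of 1.19% (383 of 32062 reads, 1.08% to 1.32%). The lowest shares of lymph node were thus in the mice aged 4 and 18 weeks, the youngest, and age was not tested. All listed lambda genes together, set against the Igkv sum, made up 3.44% ± 0.27 in proteinuric lymph node, 3.05% ± 0.97 in antibody-positive lymph node, 2.88% ± 1.29 in TLS and 4.84% ± 1.60 in kidney (SD).

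**Figure D4:**
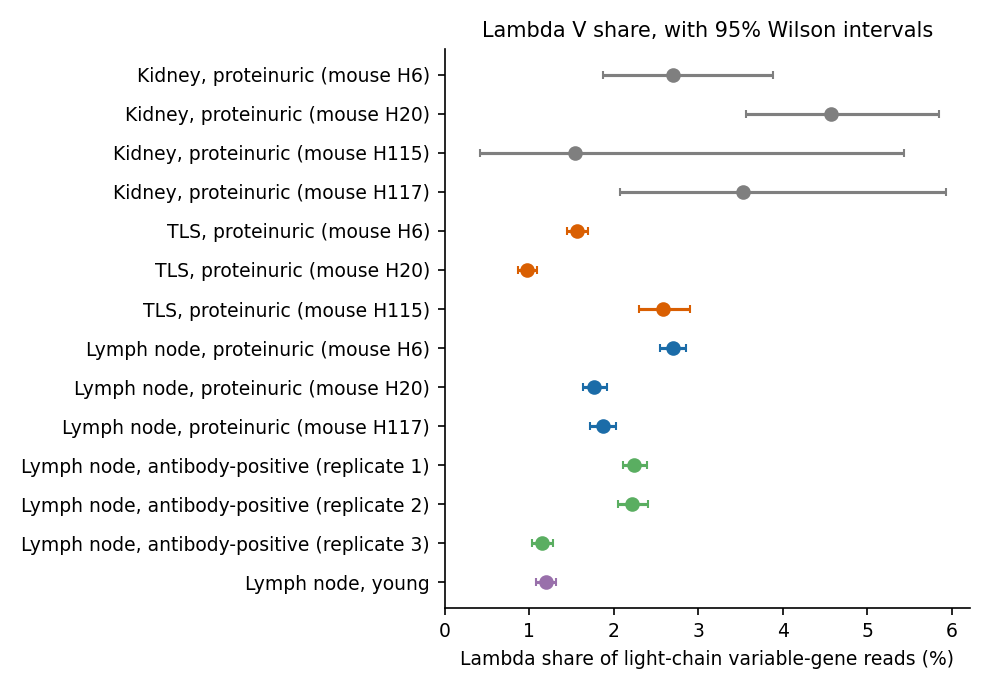
Lambda share of variable-gene reads in percent, 1 point per library, with 95% Wilson intervals that cover counting error only. Kidney shares have wide intervals, up to 5.93% in mouse H117, and the TLS and lymph node points lie between 0.973% and 2.70%.

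Set against the kappa constant gene instead of the Igkv genes, the lambda share looked different. Lambda constant reads made up 1.24%, 11.5%, 3.57% and 2.78% of the lambda and kappa constant reads in the kidneys of mice H6, H20, H115 and H117. In TLS the share was 59.2%, 41.9% and 32.9% in mice H6, H20 and H115, and in lymph node 61.5%, 63.2% and 63.6% in mice H6, H20 and H117. The tissue means of 4.78% ± 4.59, 44.7% ± 13.3 and 62.8% ± 1.11 differed by up to 58.0 percentage points (SD, exact permutation test, two-sided, p = 0.000476, the smallest that 4200 arrangements allow, adjusted p = 0.00381). The share was lower in kidney than in TLS in 3 of 3 mice and lower than in lymph node in 3 of 3 mice. Permuted within mouse, that is with the mouse as a block, the same difference had an exact p of 0.00694 and an adjusted p of 0.0556. This is the smallest p that the 144 arrangements allow, and 1 test at that p cannot pass an adjustment over 8. Without the 3 libraries rich in ribosomal RNA it was again 58.0 points, with an exact permutation p of 0.00952, again the smallest that its 210 arrangements allow, and an adjusted p of 0.0762. The difference of antibody-positive from proteinuric lymph node was -11.3 points (exact permutation p = 0.1, the smallest the design can give, adjusted p = 0.4).

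These shares turn on Igkc, the kappa constant gene, whose reads hardly followed the kappa variable genes. Igkc had 108 to 246 reads in kidney, 275 to 401 in TLS and 244 to 298 in proteinuric lymph node, and limma called it in none of the comparisons (kidney over TLS, log2 fold change -0.46 ± 0.45, adjusted p = 0.56). The number of Igkv reads per Igkc read was 1.19 to 5.09 in kidney, 26.8 to 137 in TLS and 106 to 142 in proteinuric lymph node. With the Igkv sum in place of Igkc, the lambda constant share was 1.87% ± 1.19 in kidney, 1.22% ± 0.52 in TLS and 1.38% ± 0.24 in lymph node, and its difference of 0.65 points did not pass (exact permutation p = 0.576). What set the Igkc counts was not tested, and a lambda share above 30% in the lymphoid tissues appears with Igkc alone as the kappa measure.

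Iglc1 was nearly absent. It had no read in the 3 TLS, the 3 proteinuric lymph nodes and the young lymph node, 1, 2 and 0 reads in antibody-positive replicates 1, 2 and 3, and 0, 3, 0 and 2 reads in the kidneys of mice H6, H20, H115 and H117. In the lymph node of mouse H20, 0 of 512 lambda constant reads allows an Iglc1 share of up to 0.586%, and in the TLS of mouse H6, 0 of 399 allows up to 0.752%. Its share of lambda constant reads was 9.38% in the kidney of mouse H20 (3 of 32 reads, 3.24% to 24.2%) and 33.3% in that of mouse H117 (2 of 6 reads). Tissue means differed by 10.7 points, which did not pass (exact permutation p = 0.267, adjusted p = 0.52), and the other 2 kidneys had 3 and 4 lambda constant reads. Antibody-positive lymph node lay 0.22 points above proteinuric lymph node (exact permutation p = 0.4). The gene did not pass the filter and was not tested for its level. Iglv1, the variable gene that in the usual arrangement pairs with Iglc1 or Iglc3, had 210 to 991 reads in the same TLS and proteinuric lymph nodes in which Iglc1 had none.

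Iglv1 took most of the lambda variable reads in every library. It made up 87.4% in the TLS of mouse H6 (84.5% to 89.8%), 77.5% in that of mouse H20 (72.2% to 82.1%) and 84.2% in that of mouse H115 (79.5% to 88.0%). In lymph node it made up 89.5% in mouse H6 (87.6% to 91.2%), 80% in mouse H20 (76.5% to 83.0%) and 67.7% in mouse H117 (63.8% to 71.5%). Lymph node and TLS of one mouse differed by 2.17 points in mouse H6 and 2.47 in mouse H20, and differences between mice were not tested. The lymph node of mouse H117 stood apart through Iglv3, which had 123 of its 558 lambda variable reads. In kidney the Iglv1 share was 96.4%, 71.7%, 100.0% and 100.0% in mice H6, H20, H115 and H117, on 28, 60, 2 and 13 reads. Tissue means ranged over 12.9 points, which did not pass (exact permutation p = 0.325, adjusted p = 0.52), and over 4.97 points without the libraries of fewer than 20 lambda variable reads. Antibody-positive lymph node had 77.8%, 81.4% and 72.9%, a difference of means from proteinuric lymph node of -1.73 points (exact permutation p = 0.9), and the young lymph node had 81.7%.

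**Figure D5:**
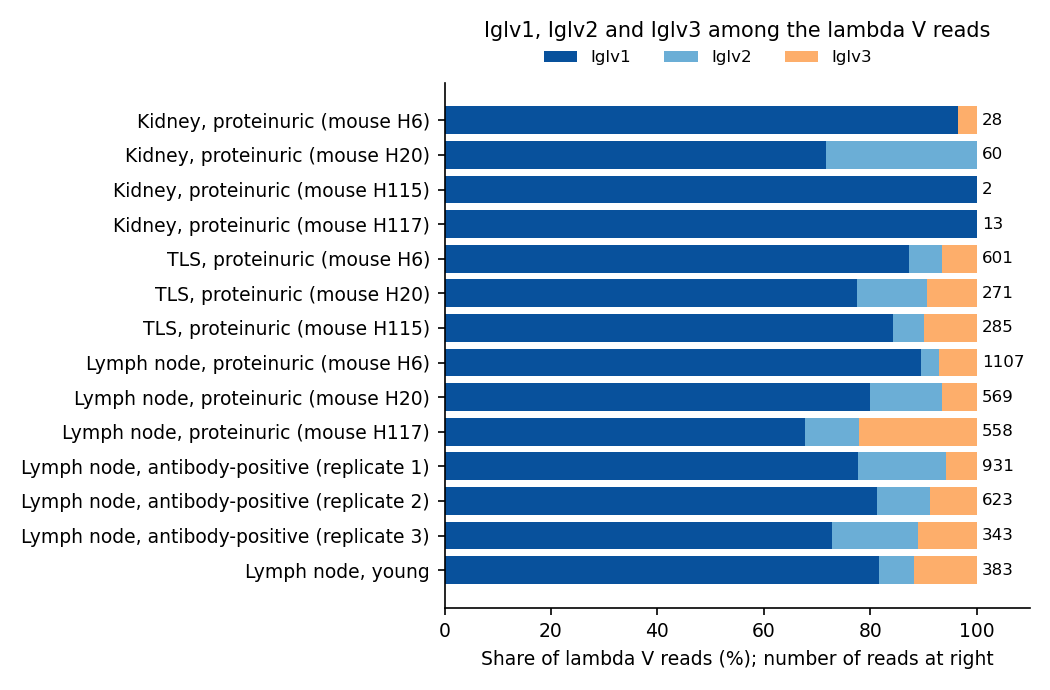
Shares of Iglv1, Iglv2 and Iglv3 among the lambda variable reads of each library in percent, as stacked bars, with the number of reads at the right. Iglv1 takes 67.7% to 89.5% in TLS and lymph node, and the kidney bars rest on 2 to 60 reads.

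Most other genes of antibody production that were tested were also lower in kidney. Of 23 listed genes for heavy chains and antibody secretion, 22 were tested, and 16 were lower in kidney than in TLS, 0 higher and 6 not called (median log2 fold change -2.59, against 0.01 over all genes). Lower in kidney were 8.62% of all genes tested against TLS and 20.8% against lymph node. The largest changes called were in the IgG constant genes Ighg3 (-5.24), Ighg1 (-5.22) and Ighg2c (-5.15). Against lymph node, 21 were lower in kidney and 0 higher (median -2.94, against -0.05), led by Ighg3 (-6.77), Ighg1 (-6.23) and Mzb1 (-6.15), a chaperone of antibody assembly. Between lymph node and TLS only Pou2af1, a B cell coactivator, was called of this list (log2 fold change 1.10, adjusted p = 0.0477), and between the disease states none was. Of the other light-chain genes, 6 of 15 are listed and 5 were tested in the tissues. None of the 5 was called between kidney and TLS (limma), among them Igkj1 (log2 fold change -0.08, adjusted p = 0.965) and Igkj2 (-2.52, adjusted p = 0.0538). Igkj1, a kappa joining segment, was higher in lymph node than in TLS (log2 fold change 3.38, adjusted p = 0.02), and Igkj1 (-3.45) and Igkj2 (-2.31) were lower in kidney than in lymph node.

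Markers of the cells that express lambda moved in the same direction. All 8 tested B cell markers and 5 of 6 tested plasma cell markers were lower in kidney than in TLS, and none was higher. This direction was called for 8.62% of all genes tested. Of these markers, Ms4a1, Fcer2a, Pax5, Blk and Tnfrsf17 had no read in any kidney. They passed the filter only through the lymphoid tissues, which favours a lower kidney value. The summed normalized reads of the 7 plasma cell markers were 48.7 to 148 in kidney, 829 to 1662 in TLS and 1297 to 2792 in proteinuric lymph node. Prdm1 and Tnfrsf17, plasma cell genes, had no read in any kidney, and Prdm1 had none in the TLS of mouse H115 either. The markers of T cells, which do not make antibody, were also lower in kidney than in TLS (6 of 6 tested), and 4 of the 6 were higher in lymph node than in TLS. Among them, Cd8a had no read in any kidney. How far the number of B and plasma cells sets the lambda level was not tested.

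By likeness to the summed lambda value over the 14 libraries, the nearest genes were Ighg2b (Pearson r of log2 values 0.987), Ighv1-77 (0.985), Mzb1 (0.981), Slpi (0.981) and Ighv1-72 (0.978). They were followed by Ighv1-82, AI662270, Ighv1-55, Ighv1-64 and Ighm (0.977 to 0.973). Of the 10, 7 are heavy-chain variable or constant genes, and none is an Igkv gene, the nearest of which (Igkv3-12) ranked 29 with 0.965. The libraries fall into kidney and lymphoid tissue, so that these values mostly describe that split.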

How the data were processed

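Per the study's methods, RNA was fragmented, sequenced on the PGM and trimmed, mapped and counted per gene with CLC Genomics Workbench at its defaults against GRCm38. The deposited values are a signal per gene and library. The size factor of a library was taken as 1 over its smallest value, which makes the smallest product 1 by definition. Multiplied by this factor, 100% of the values are whole (tolerance 1e-06). Each deposited signal was then taken as reads with 1 added, over that factor, and reads were recovered. This assumes that the smallest value of a library stands for 0 reads. The scaling itself was not described in the sources used here.

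The 10 libraries of proteinuric mice entered one limma fit (version 3.58.1, R 4.3.3, intensity trend, robust) of log2(value + 1). Genes needed a mean of 5 or more (7382 passed), and p-values were Benjamini-Hochberg adjusted over all of them (threshold 0.05). The 6 lymph nodes of the 2 replicated disease states had a fit of their own. Shares came from recovered reads and were compared by exact two-sided permutation tests (of the sum of squares between the 3 tissues, or of the difference of 2 means), adjusted over 8. Members and lists were chosen with earlier results of these data known. The genes named are all members, the kappa comparators, the 3 largest called changes of the list of heavy-chain and secretion genes and of other light-chain genes, marker genes without reads, and the 10 nearest genes by correlation with the summed members, with the nearest Igkv gene added after its rank was seen. Depth was 343825 to 443379 reads, and Wilson intervals (95%) and limits of 3 reads cover counting error only.

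Mouse numbers mark tissues of one animal. Deviations from tissue means correlated across genes with a median of 0.114 in 8 pairs of libraries of one mouse and 0.0353 in 25 pairs of different mice. Kidney and TLS of one mouse correlated at 0.351, 0.364 and 0.454 in mice H6, H20 and H115. Pairs of one mouse that include lymph node ran from -0.335 (kidney, mouse H117) to 0.202 (kidney, mouse H20). The main fit did not use the pairing, and the alternative with mouse as a replicate block did. Alternatives were edgeR 4.0.16 and DESeq2 1.42.0 on the recovered reads, other pseudocounts, filters, scalings and sets of libraries. Leaving out the 3 libraries rich in ribosomal RNA was chosen after seeing the data. Fits were tested on simulated data. The whole kidneys of the series, sequenced on another instrument, were not analysed here.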

Additional observations from a re-analysis of the deposited data

Results flagged for a closer look

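Of 9 values checked in the 4 kidney libraries, the kidney of mouse H20 stood apart in 2. Both rest on the same 17 reads of Iglv2, so they are not separate findings. With counts this low, no rate of flags by chance can be given. Its Iglv2 value of 15.2 (17 reads) lay far above the 0.884 to 1.78 of the other 3 kidneys, which had no read. Its Iglv1 share of lambda variable reads of 71.7% lay below the 96.4% to 100.0% of the others, which rest on 2 to 28 reads. The young lymph node, a single library outside the tests between groups, held 649 reads of the lambda genes, of which 313 were Iglv1 and 0 Iglc1.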

How the results depend on the processing

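With each library left out in turn, all 4 lambda genes stayed lower in kidney than in TLS and in lymph node, and 0 to 1 was called between lymph node and TLS (Iglv3, without the lymph node of mouse H20). A pseudocount of 5 also called 1 gene there (Iglv3, log2 fold change 1.28, adjusted p = 0.0496). The edgeR and DESeq2 tests called 3 of 4 between kidney and TLS, without Iglv2. With mouse as a replicate block, 4, 0 and 4 genes were called between kidney and TLS, lymph node and TLS, and kidney and lymph node, and no other call of a lambda gene or share changed than that of the lambda constant share (58.0 points, adjusted p = 0.0556), where 144 arrangements could not give a smaller p, so that this loss says nothing about its stability. The edgeR test with TMM shifted the median log2 fold change of all genes to -0.11 (kidney over TLS) and -0.14 (lymph node over TLS). Of its 833 calls between kidney and TLS, 164 had kidney higher, as had 223 of 844 in edgeR with DESeq2 size factors and 448 of 1084 with limma. Over all genes, 530 (without the TLS of mouse H6) to 1344 genes were called between kidney and TLS with a library left out, and 480 (without the lymph node of mouse H117) to 977 between lymph node and TLS, against 780.

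The lambda constant share, 58.0 points between tissues, came to 0.65 points with Igkv in place of Igkc and 58.0 points (adjusted p = 0.0762) without the 3 libraries rich in ribosomal RNA, where 210 arrangements of 7 libraries could not give a smaller p, and the lambda variable share came to 62.2 points (adjusted p = 0.00571) with Igkc in place of Igkv. The cause was not tested. With a library left out, the differences between tissues were 0.88 to 1.89 points for the lambda variable share, 56.8 to 60.3 for the lambda constant share, 9.01 to 19.7 for Iglv1 and 3.12 (without the kidney of mouse H117) to 14.2 for Iglc1. Antibody-positive minus proteinuric lymph node, the lambda variable share ranged from -0.43 to 0.12, the lambda constant share from -15.6 to -8.00, the Iglv1 share from -7.40 to 3.49 and the Iglc1 share from 0.09 to 0.32. The sign turned without the lymph node of mouse H6 (0.05 for the lambda share, 3.49 for Iglv1, and a log2 fold change of Iglv1 of 0.32, lowest -0.79 with another library left out) or without replicate 3 (0.12 and 0.50). Only the Iglv1 and Iglc1 shares between tissues had libraries of fewer than 20 reads to leave out (4.97 and 9.38 points). For Iglc1 this left the kidney of mouse H20 alone (3 of 32 reads) to stand for kidney. Kidney depth, 6 to 92 lambda reads a library, limits its shares.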
